A study of Mus musculus with 2 samples.

Results

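Mediator is the multi-subunit coactivator that connects transcription factors bound at enhancers and promoters with RNA polymerase II. Its genes were taken by symbol, as all Med genes with a number, Med12l, Med13l, Ccnc, Cdk8 and Cdk19, which gave 33 of the 32285 genes listed. Their transcripts were counted in E14 mouse embryonic stem cells (129/Ola background), in 2 libraries, named control and sonKD. Cells of the first received a control siRNA (a short RNA duplex that directs cleavage of a matching transcript) and cells of the second an siRNA against Son. Son encodes a protein of nuclear speckles with a role in splicing. Both cultures grew in 15% serum with leukaemia inhibitory factor, were transfected by lipofection at 24 hours after seeding and were harvested 24 hours later. They were then frozen, thawed, sorted for exclusion of the dye 7-AAD and barcoded with 10x Genomics Single Cell 3' v3 chemistry. The knockdown is transient and was made in 1 cell line. With 1 library a group there are no replicates, no test was made, and an effect of the siRNA and a difference between libraries cannot be told apart.

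Mediator has a head and a middle that contact the polymerase, a tail that receives many activators, and a scaffold subunit, MED14, that joins them. A separable kinase module (MED12, MED13, cyclin C and CDK8, or their paralogs) binds the core and blocks its contact with the polymerase. In mouse embryonic stem cells Mediator is known for its occupancy of enhancers bound by Oct4, Sox2 and Nanog. The 33 genes were placed as 7 head, 9 middle, 9 tail and 7 kinase module genes with Med14 apart. Med27, Med28, Med29 and Med30, which have been placed in head or tail by different structural models, were counted as tail.

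Cells were barcodes with at least 2500 unique molecular identifiers (UMIs, each marking 1 captured molecule) from 1000 or more genes, of which no more than 10% were mitochondrial. There were 4978 in control and 2731 in sonKD, with 40902904 and 32032551 UMIs and medians of 7737.5 and 11612 UMIs per cell. The libraries shared 2 cell barcodes. All 8 pluripotency markers examined were present, from 134 to 5027 CPM (summed UMIs scaled to the same total in each library) in control and from 124 to 6075 CPM in sonKD. Fibroblast markers summed to 3.15 and 3.65 CPM, with Col3a1 and Lum at 0 in both libraries, and primitive endoderm markers summed to 5.62 and 4.71 CPM. Neuroectoderm markers summed to 11.6 and 11.8 CPM, mesoderm markers to 4.01 and 3.75 CPM, and trophectoderm markers to 37.4 and 43.3 CPM, nearly all from Krt8, with Elf5 at 0. Son itself had 169 CPM in control against 106 in sonKD, a log2 ratio (sonKD over control) of -0.67 with a 95% interval of -0.73 to -0.61. All intervals cover counting error only. Over all 8063 genes whose 2 levels averaged 10 CPM or more, the median log2 ratio was -0.12, so ratios are read against that value and not against 0 alone. The nuclear RNA Malat1 had 2634 CPM in control against 2192 in sonKD, a log2 ratio of -0.27.

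The 33 genes together made up 1579 CPM in control, from 64582 UMIs, and 1509 CPM in sonKD, from 48327 UMIs. The log2 ratio of these sums was -0.07 (-0.08 to -0.05), which left sonKD at 95.6% of control. The kinase module differed most, with a sum of 341 CPM in control against 277 in sonKD, a log2 ratio of -0.30 (-0.34 to -0.26). The 26 other genes summed to 1238 and 1231 CPM, a log2 ratio of -0.0079 (-0.03 to 0.01). By module the log2 ratio of sums was -0.0070 (-0.05 to 0.04) for the head, 0.02 (-0.0076 to 0.05) for the middle and -0.05 (-0.08 to -0.01) for the tail. As sums, which abundant genes dominate, those 3 modules lay above the median of all genes, and the kinase module lay below it. By the median of their genes at 10 CPM, the head was at -0.04, the middle at -0.03 and the kinase module at -0.33. The tail, at -0.11, was close to the -0.12 of all genes. With Med27 to Med30 counted in the head, the sum of the tail was at -0.23, below that value. Another scaling shifts all ratios alike, so it keeps the order of the modules but can change signs. With trimmed mean (TMM) factors the log2 ratio was 0.02 for all 33 genes, 0.08 for the head, 0.11 for the middle, 0.04 for the tail and -0.21 for the kinase module.

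The share of a module among Mediator UMIs needs no library total. The kinase module took 21.6% of Mediator UMIs in control (21.3 to 21.9, exact binomial interval) and 18.4% in sonKD (18.04 to 18.73). The middle took 38.1% and 40.5%, the head 15.3% and 15.9%, the tail 24.0% and 24.4%, and Med14 0.937% and 0.846%. Shares depend on each other, so a smaller share of the kinase module raises those of the other modules, the largest most. The middle, the largest module, had the largest gain. Its sum includes Med31, at 35.4 CPM in control against 52.4 in sonKD, while the median log2 ratio of middle genes was -0.03.

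**Figure D1:**
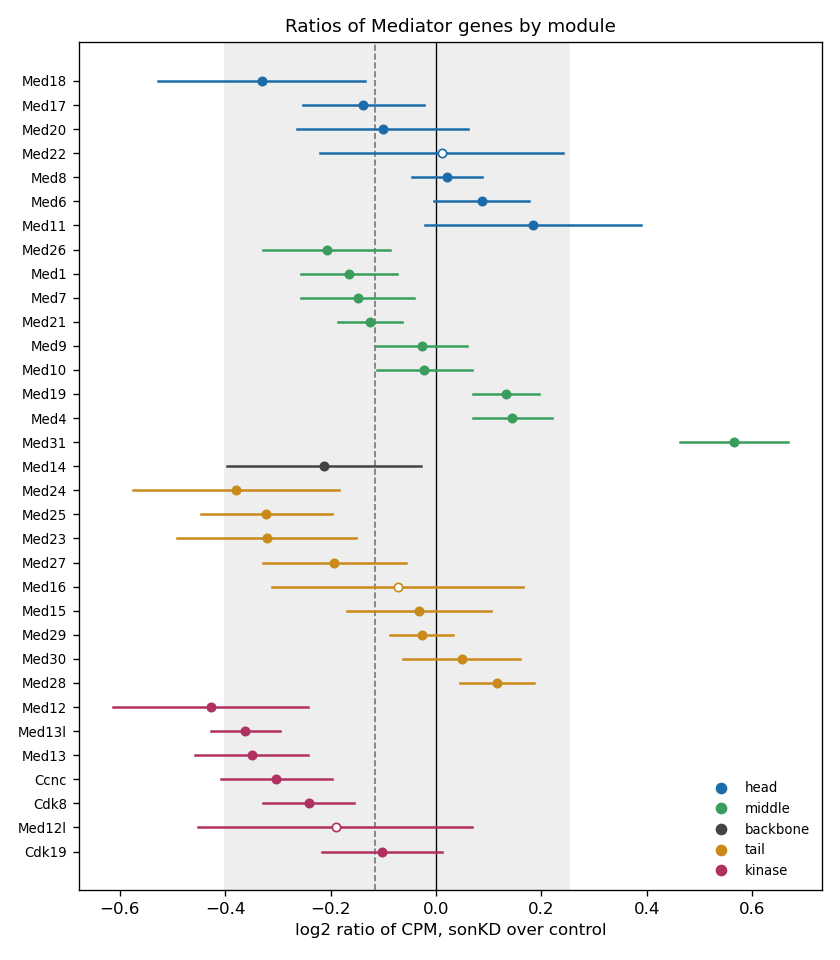
Log2 ratio of CPM, sonKD over control, on the horizontal axis for each of the 33 genes, coloured by module, with 95% counting intervals as bars and open points for the 3 genes under a mean of 10 CPM. The grey band runs from the 5th to the 95th percentile of 8063 genes (-0.40 to 0.25), and the dashed line is their median of -0.12. All 7 kinase module genes lie below 0, as do 74.9% of the 8063 genes, while Med31, at 0.57, lies above the band.

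Of the 33 genes, 30 averaged 10 CPM or more, and Med22, Med16 and Med12l did not. The median log2 ratio of the 30 genes was -0.13, close to the -0.12 of all genes. Of the 30, 22 were lower and 8 higher in sonKD, and 74.9% of all genes were lower. With TMM factors, 18 were lower and 12 higher. The median of all genes was then -0.03, so most of all genes were lower too, but their exact share was not counted. A log2 difference of 0.32, here called the fold, was used to mark larger differences. It was reached by 6 of the 30 genes in the lower direction, Med12, Med24, Med13l, Med13, Med18 and Med25, and by Med31 alone in the higher direction. Among all genes, 10.2% reached that fold as lower and 3.5% as higher. Just at the limit, Med25 had a log2 ratio of -0.3221 and Med23, which missed it, -0.3212. The count depends on scaling, because all ratios shift together: with TMM factors Med12 alone stayed at or past the fold as lower, against 4.59% of all genes, and Med31 stayed as higher. With totals that leave out mitochondrial and ribosomal protein genes Med12 alone was again lower past the fold, against 5.52% of all genes. The named genes also depend on cell depth. In cells of 5000 to 10000 UMIs, a range chosen after the values were seen, 6 genes again reached the fold as lower, but Med13l (-0.21), Med13 (-0.25) and Med25 (0.02) did not, and Med14 (-0.60), Cdk8 (-0.45) and Med23 (-0.40) did. The median of all genes was lower in that range, at -0.16, and the share of all genes past the fold there was not counted. At no more than 5% mitochondrial UMIs, Med18 was at -0.23 and missed the fold.

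The kinase module holds 3 pairs of paralogs and cyclin C. Med12 (chrX:101274030-101297465, GRCm38, plus strand) encodes the subunit that activates the kinase. It had 15.9 CPM in control (649 UMIs) against 11.8 in sonKD (378 UMIs), a log2 ratio of -0.43 (-0.61 to -0.24), the lowest of the 30 genes. All of its 3' end sequence in the annotation also occurs in Gm21986, a model of the same annotation that the files do not list. Gm21986 is 1 of 26 other annotated genes that share some of that sequence. The part of this sharing in the count of Med12 was not tested. Its paralog Med12l was at 7.41 and 6.49 CPM, a log2 ratio of -0.19 with an interval of -0.45 to 0.07 that includes 0. In cells of 5000 to 10000 UMIs the ratio of Med12l was -0.68.

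MED13 links the kinase to the core, and here the paralog was the more abundant: Med13l (chr5:118560679-118765438, plus strand) had 123 CPM in control against 95.7 in sonKD, a log2 ratio of -0.36 (-0.43 to -0.30). Med13 was at 44.8 and 35.2 CPM, a log2 ratio of -0.35 (-0.46 to -0.24). Both genes were thus lower by nearly the same factor. In cells of 5000 to 10000 UMIs the ratios were smaller, -0.21 for Med13l and -0.25 for Med13, and neither reached the fold. Counts of 3' ends have no scale per transcript length, so levels set side by side are captured molecules. How reads in introns were treated is not known here. Their part in the levels of Med13l, with a span of 204760 bases, and Med13, with 90570, was not tested.

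Ccnc, which encodes cyclin C, had 46.3 CPM in control against 37.5 in sonKD, a log2 ratio of -0.30 (-0.41 to -0.20). Of the kinases, Cdk8 was at 66.7 and 56.5 CPM, a log2 ratio of -0.24 (-0.33 to -0.15), and -0.45 in cells of 5000 to 10000 UMIs. Its paralog Cdk19 was at 36.7 and 34.2 CPM, a log2 ratio of -0.10 with an interval of -0.22 to 0.01. That ratio was above those of 53.6% of the 8063 genes. The 5 other kinase module genes at 10 CPM lay below the median of all genes. The 6 kinase module genes at 10 CPM had a median log2 ratio of -0.33, and 3 of them, or 50%, reached the fold as lower, against 10.2% of all genes. With TMM factors, or with totals without mitochondrial and ribosomal protein genes, 1 of the 6, Med12, reached it.

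The balance of Med13 and Med13l differed little between the libraries, while Cdk8 and Med12 made up smaller shares of their pairs in sonKD. Med13 made up 26.7% of the UMIs of Med13 and Med13l in control (25.7 to 27.8) and 26.9% in sonKD (25.5 to 28.2). Cdk8 made up 64.5% of Cdk8 and Cdk19 (63.1 to 66.0) and 62.3% in sonKD (60.5 to 64.1). For Med12 and Med12l the share of Med12 was 68.2% (65.1 to 71.1) and 64.5% (60.5 to 68.4), intervals that overlap.

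**Figure D2:**
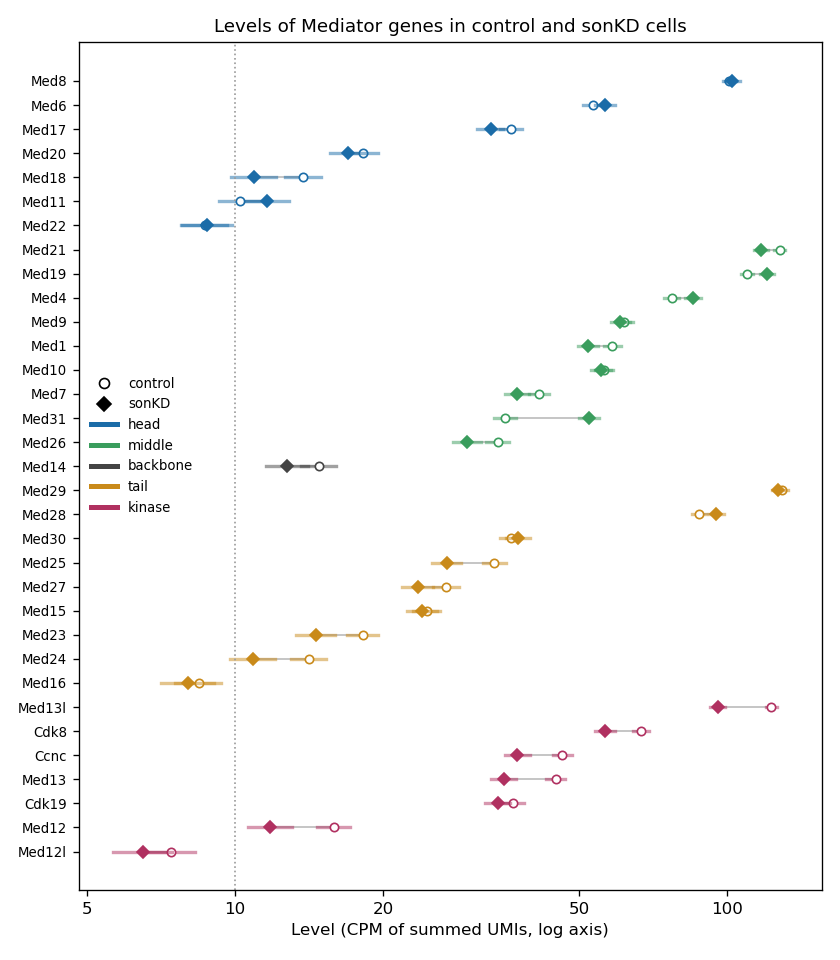
Level of each of the 33 genes in control (open circles) and sonKD (filled diamonds), in CPM of summed UMIs on a log axis, with exact 95% Poisson intervals as bars and a dotted line at 10 CPM. Levels run from 7.41 CPM for Med12l to 130 CPM for Med29 in control, and the widest gap on the log axis is that of Med31, from 35.4 to 52.4 CPM.

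The middle module, which includes the subunit that nuclear receptors bind, held the one gene past the fold as higher. Med31 (chr11:72211724-72215592, minus strand), a small and conserved middle subunit, had 35.4 CPM in control (1448 UMIs) against 52.4 in sonKD (1679 UMIs). Its log2 ratio of 0.57 (0.46 to 0.67) was higher than that of 98.9% of the 8063 genes, and it stayed between 0.55 and 0.66 under the alternatives tried. On the opposite strand the gene overlaps 4930563E22Rik, which was at 1.88 and 2.37 CPM. None of the 3' end sequence of Med31 occurs in another annotated gene.

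The other middle genes lay within a log2 ratio of -0.21 to 0.15. Med26, which recruits elongation factors to Mediator, was lowest, with 34.2 CPM in control against 29.6 in sonKD, a log2 ratio of -0.21 (-0.33 to -0.09). Med1, the subunit contacted by nuclear receptors, was at 58.5 and 52.1 CPM, a log2 ratio of -0.17 (-0.26 to -0.07). The intervals of Med26 and Med1 include the -0.12 median of all genes. Med21 was the most abundant, at 128 and 117 CPM. Med4 was at 77.2 and 85.4 CPM, a log2 ratio of 0.15 (0.07 to 0.22), and Med19 at 110 and 120 CPM, a log2 ratio of 0.13 (0.07 to 0.19). Med9 and Med10 had intervals that include 0, and Med7 was at -0.15. The median of the 9 middle genes was -0.03.

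In the head, Med8 was the most abundant gene, with 101 CPM in control and 102 in sonKD. Med17, the scaffold of the head, was at 36.4 and 33.1 CPM, a log2 ratio of -0.14 (-0.25 to -0.02). Med18, at 13.7 and 10.9 CPM, was the lowest by ratio at -0.33 (-0.53 to -0.14). It shares 13.6% of its 3' end sequence with other genes. Med11 was at 10.2 and 11.6 CPM, with a ratio of 0.18 and an interval of -0.02 to 0.39. Med6, Med8, Med20 and Med22 also had intervals that include 0. Those of Med6 and Med8 lay above the -0.12 median of all genes, and that of Med17 includes it. The head genes at 10 CPM were 3 lower and 3 higher.

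Med14, the central scaffold, was among the least abundant core genes, with 14.8 CPM in control (605 UMIs) against 12.8 in sonKD (409 UMIs). Its log2 ratio was -0.21 (-0.40 to -0.03), an interval that includes the -0.12 median of all genes. In cells of 5000 to 10000 UMIs alone it was -0.60 (-1.03 to -0.19), from 401 and 56 UMIs, and in cells of at least 10000 UMIs it was -0.06 (-0.32 to 0.21), so its size is not well set at this depth.

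The tail genes ranged from -0.38 to 0.12. Med24, which lies in the part of the tail bound by MED16 and MED23, was named in earlier work on SON knockdown, so its direction is not independent evidence. It had 14.1 CPM in control (578 UMIs) against 10.9 in sonKD (348 UMIs), a log2 ratio of -0.38 (-0.58 to -0.18). Med25, the target of several activators, was at 33.6 and 26.9 CPM, a log2 ratio of -0.32 (-0.45 to -0.20). In cells of 5000 to 10000 UMIs its ratio was 0.02. Med23, a subunit used by signal-dependent activators, was at 18.2 and 14.6 CPM, a log2 ratio of -0.32 (-0.49 to -0.15). Against these, Med28 was at 87.8 and 95.1 CPM, a log2 ratio of 0.12 (0.05 to 0.19). Med29 had the highest level of all 33 genes in both libraries, at 130 and 127 CPM. Med15 and Med30 had intervals that include 0. With Med27 to Med30 counted in the head, the remaining tail genes had a log2 ratio of sums of -0.23 in place of -0.05.

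Ratios were set beside gene structure because Son acts in splicing. Across the 30 genes, Spearman's rho of the log2 ratio was -0.57 with the number of exons, -0.64 with transcript length and -0.56 with gene span. Across all genes the values were -0.29, -0.28 and -0.17. These are descriptions across genes, which are not replicates. GC content and median intron length gave -0.03 and 0.03 across the 30 genes.

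All 7 kinase module genes have at least 12 exons in their principal transcript, a limit set after the values were seen. Among all genes with at least 12 exons (3180) the median log2 ratio was -0.16, 86.7% were below 0 and 13.1% reached the fold as lower. The 6 kinase module genes of that class had a median of -0.33. The 7 other Mediator genes of that class, Med14 among them, had a median of -0.21, with 2 past the fold. The 17 Mediator genes with fewer exons had a median of -0.02, against -0.08 for all such genes. The part of exon number or length in the lower kinase module was not tested.

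**Figure D3:**
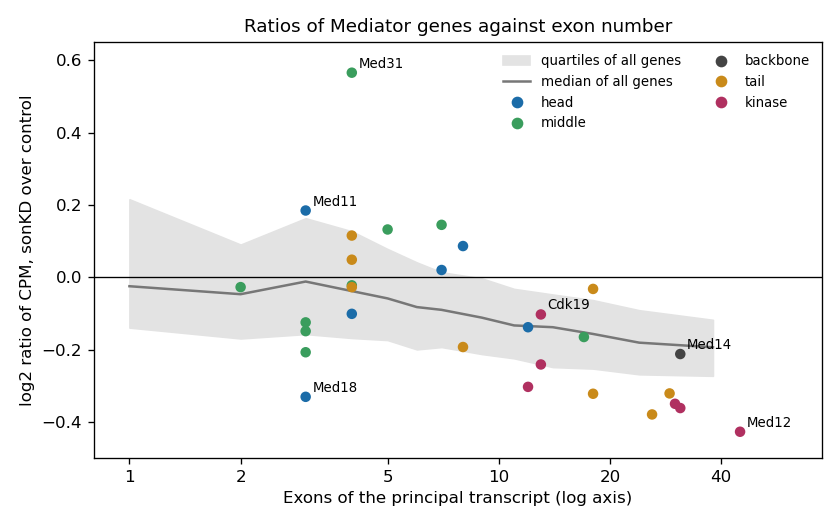
Log2 ratio of CPM, sonKD over control, against the number of exons of the principal transcript (log axis) for the 30 genes at 10 CPM or more, coloured by module. The grey line and band are the median and quartiles of all genes by exon number, and all 13 Mediator genes with at least 12 exons lie below 0, as do 86.7% of all such genes.

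Genes with a median intron under 500 bases and a transcript GC content over 52%, limits set after the values were seen, had a median log2 ratio of -0.20, and 29.6% of them reached the fold as lower. Other genes had a median of -0.11, with 7.34% past the fold. Of the 30 Mediator genes, 4 are of that kind, Med12, Med24, Med25 and Med11. The first 3 were past the fold as lower and Med11, with 3 exons, was not.

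Upstream sequences are shown for the genes at the ends of the range, since their ratios differ most. RefSeq (GRCm38.p6) held a promoter for 28 of the 33 genes. Med24 is without an entry, so those of Med12, lowest by ratio, and of Med31 and Med11, the highest, are given. Each was searched over the 250 bases before the RefSeq start and is printed 5′ to 3′ on the gene's strand, with matches to any of 5 motifs in capitals. The motifs, searched on both strands, were CCGGAAG (ETS), CCAAT (NF-Y), GGGCGG (SP) and the longer NRF1 and YY1 motifs. RefSeq starts Med12 within the gene as GENCODE draws it, so the last 61 bases of its window, inside the GENCODE gene, are not printed.
Med12 (chrX:101273841-101274029, plus strand): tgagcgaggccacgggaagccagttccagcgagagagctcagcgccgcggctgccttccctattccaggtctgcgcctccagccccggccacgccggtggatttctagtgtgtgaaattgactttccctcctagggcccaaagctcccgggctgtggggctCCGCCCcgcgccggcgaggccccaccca
Med31 (chr11:72215593-72215842, minus strand): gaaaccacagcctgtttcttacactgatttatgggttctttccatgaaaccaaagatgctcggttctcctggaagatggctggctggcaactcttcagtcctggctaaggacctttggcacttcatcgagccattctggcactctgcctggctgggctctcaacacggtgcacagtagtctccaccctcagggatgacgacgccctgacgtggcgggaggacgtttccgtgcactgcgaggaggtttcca
Med11 (chr11:70451668-70451917, plus strand): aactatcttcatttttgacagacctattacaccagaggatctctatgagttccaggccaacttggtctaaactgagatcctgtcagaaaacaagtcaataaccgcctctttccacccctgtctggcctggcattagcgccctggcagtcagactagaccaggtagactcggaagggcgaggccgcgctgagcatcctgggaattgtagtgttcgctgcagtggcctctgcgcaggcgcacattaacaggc
The Med12 window held 1 match, to SP on the opposite strand, and the windows of Med31 and Med11 held none. The SP motif was in 32.7% of all 32851 promoter windows, NF-Y in 33.8%, ETS in 6.91%, NRF1 in 0.782% and YY1 in 0.207%. A match is a description of these letters only.

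Cells of the libraries differed in depth, so levels were also compared within ranges of depth. The kinase module was at 323 CPM in 3475 control cells and 265 CPM in 675 sonKD cells of 5000 to 10000 UMIs, a log2 ratio of -0.29 (-0.37 to -0.21). In cells of at least 10000 UMIs (989 and 1884) it was at 373 and 278 CPM, a log2 ratio of -0.42 (-0.47 to -0.37). In the shallowest cells (514 and 172) it was at 374 and 355 CPM, and the ratio of -0.08 had an interval of -0.30 to 0.14, so a difference was not detectable there. The kinase module's share of Mediator UMIs in these 3 ranges, from shallow to deep, was 24.3%, 20.7% and 23.0% in control, and 24.0%, 17.96% and 18.3% in sonKD.

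**Figure D4:**
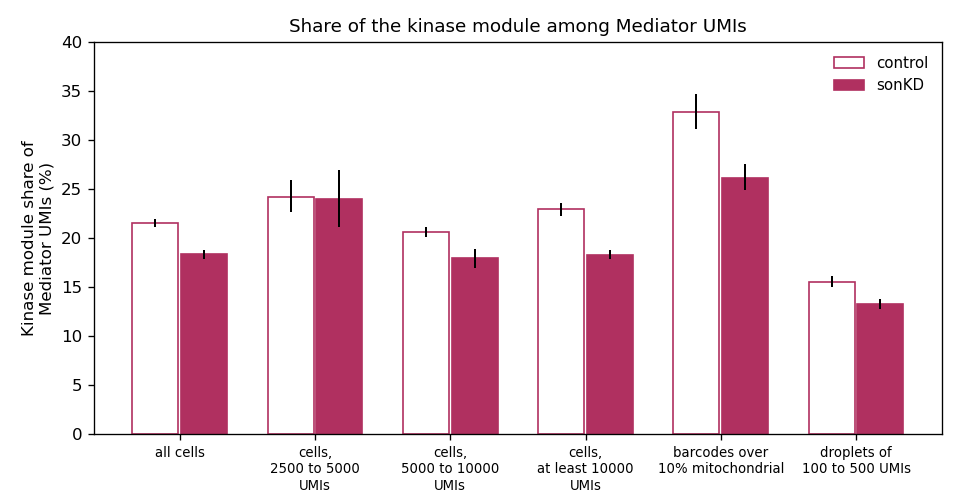
Share of the 7 kinase module genes among the UMIs of all 33 Mediator genes, in percent, for control (open bars) and sonKD (filled bars), with exact 95% binomial intervals as lines. The share is 21.6% against 18.4% in all cells, and it is lower in sonKD in each set of barcodes beyond the intervals except in cells of 2500 to 5000 UMIs.

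Single cells held few Mediator molecules. To compare cells at equal depth, 2500 UMIs were drawn at random from each, which left out no cell. A thinned control cell held 3.93 Mediator UMIs from 3.54 of the 33 genes on average, and a sonKD cell 3.77 UMIs from 3.43 genes. At least 1 kinase module UMI was found in 54.2% of control and 50.0% of sonKD cells, and at least 1 middle module UMI in 76.6% and 77.4%. Without thinning the kinase module was found in 87.5% and 90.5%, the reverse order, with deeper cells in sonKD. Over single genes, thinned detection ran from 1.65% of control cells for Med12l to 26.7% for Med21.

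Med31 was found in 8.22% of thinned control cells (7.47 to 9.01) and in 13.0% of sonKD cells (11.7 to 14.3). Without thinning these were 24.6% and 44.5%. Med13l was found in 24.9% (23.7 to 26.1) and 21.5% (19.9 to 23.0), and without thinning in 55.4% and 61.3%. Cells without any Mediator UMI at that depth were 2.15% in control and 2.67% in sonKD, and 0.0603% and 0.0732% without thinning. No cell type that lacks Mediator was at hand as a background.

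At this depth the measured spread between cells was near that of counting. Over the 23 Mediator genes with a mean of 0.05 to 0.5 UMI per thinned cell, the variance over the mean had a median of 1.02 in control and 1.00 in sonKD, where counting alone gives a value near 1. All genes in that range had medians of 1.02 and 1.02. At such low means counting dominates the measure, so a value near 1 does not show that levels vary little between cells. Med13l was the highest of the 23 in control, at 1.12.

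Counts outside the cells separate the genes in another way. In near-empty droplets of 100 to 500 UMIs, 14 of the 33 genes were at least 2-fold lower in CPM than in cells in both libraries. Levels near 2-fold lower were usual there: the median log2 ratio of droplets over cells was -0.92 in control and -1.03 in sonKD over the 8063 genes. The share of all genes that were 2-fold lower in both libraries was not counted. Cdk19 had a log2 ratio of droplets over cells of -3.23 in control and -3.82 in sonKD, and Med13l -2.68 and -3.14. These 14 genes had a median span of 67697 bases and the other 19 a median span of 9048 bases. Those of the 14 with at least 10 CPM (12) had a median log2 ratio of sonKD over control of -0.27, with 12 below 0, and those of the other 19 (18) had -0.02, with 10 below 0. Of all genes 74.9% were below 0. Spearman's rho of the droplet ratio with gene span was -0.75 in control and -0.73 in sonKD, as a description over 33 genes that share the same droplets.

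Cdk8 stood apart from the long genes. Its span is 71645 bases, yet its log2 ratio of droplets over cells was 1.16 in control and 1.30 in sonKD, above that of 99.8% and 99.9% of the 8063 genes. The part of droplet RNA in the level of Cdk8 in cells was not tested. Without Cdk8, the kinase module had a log2 ratio of sums of -0.31 (-0.35 to -0.27), so the difference was as large without it.

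**Figure D5:**
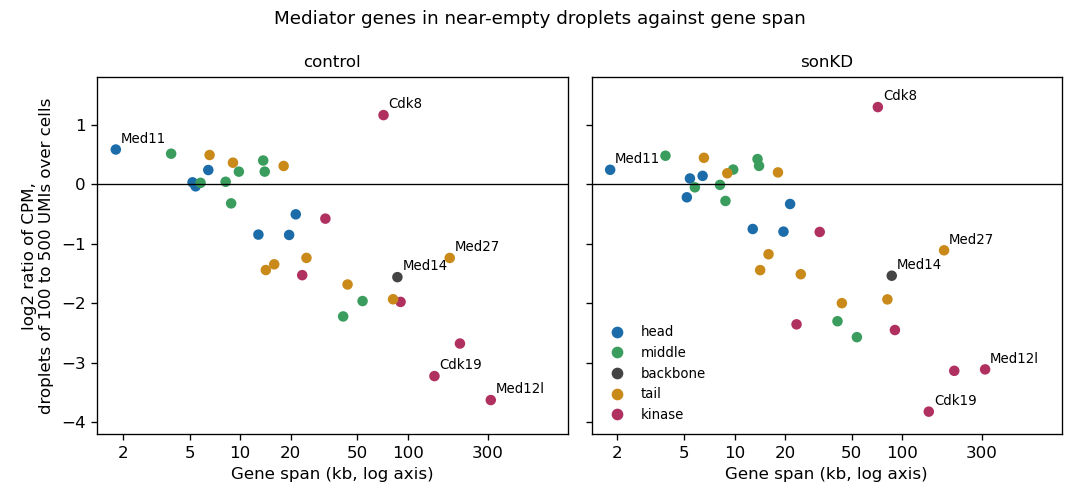
Log2 ratio of CPM in droplets of 100 to 500 UMIs over CPM in cells, against gene span in kb (log axis), for the 33 genes in control (left) and sonKD (right), coloured by module. Long genes lie low, down to -3.63 for Med12l in control and -3.82 for Cdk19 in sonKD, and Cdk8 lies alone above 1.

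Barcodes with more than 10% mitochondrial UMIs, 625 in control and 1056 in sonKD, were left out of the cells. The kinase module was at 527 CPM in those of control and 363 CPM in those of sonKD, a log2 ratio of -0.53 (-0.65 to -0.42). Its share of Mediator UMIs was 32.9% and 26.2%. Malat1 was at 13157 and 8960 CPM in these barcodes, against 2634 and 2192 CPM in cells. The kinase module and Malat1 were thus both higher in these barcodes than in cells, and both lower in sonKD than in control. Single genes of other modules, such as Med14 and Med1, were also higher there, while the sums of the head, middle and tail were not. Of the kinase module genes, Med12 was lower there than in cells in sonKD, at a log2 ratio of -0.22. Neat1, also nuclear, was higher in sonKD cells than in control cells, at a log2 ratio of 1.36. The part of nuclear RNA content in the kinase module's ratio was not tested.

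Genes of the machinery that works with Mediator were taken as lists: general factors, TFIID, elongation factors, cohesin, and RNA polymerase II subunits. The cohesin list also held its loader, its regulators and the DNA-binding protein CTCF. Of the 72 genes, 69 averaged 10 CPM or more, with a median log2 ratio of -0.13. Of these, 7 were lower past the fold, or 10.1% against 10.2% of all genes, and 2 were higher. The elongation list had a median of -0.21, with 5 of 16 lower past the fold. Nelfb and Nelfcd, subunits of the pausing factor NELF, were lowest, at 29.0 and 20.2 CPM (log2 ratio -0.52) and at 41.1 and 29.4 CPM (-0.48). Larp7 was the highest of that list at 0.18.

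The list of cohesin, which is linked to Mediator at enhancers and promoters, had a median of -0.18. All 11 of its genes were lower, against 74.9% of all genes, and Smc1a was past the fold at -0.34. That 1 of 11 is near the 10.2% of all genes. Smc3 was at -0.11. The general factors had a median of -0.07, from -0.24 for Gtf2f2 to 0.25 for Gtf2h5, and TFIID had -0.11, from -0.30 for Taf2 to 0.15 for Taf8. Of these 29 genes none was past the fold. The polymerase subunits had a median of -0.0033, with Polr2e at -0.40, Polr2k at 0.46 and Polr2l at 1.36. The median of -0.33 of the kinase module was lower than that of each of these 5 lists, as a description of these libraries.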

How the data were processed

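Single-cell 3' RNA counts of 1 control and 1 sonKD library were used. The values are raw UMI counts, deposited as a matrix of genes by barcodes that the authors made with Cell Ranger 7.1.0 per the file headers. The genome build is mm10, per the submitters' processing notes. The treatment of intronic reads and of strand is not given in the sources used here. The files list all barcodes, so cells were chosen here. Doublets were kept: Scrublet (scanpy 1.11.5) called 0.0603% and 0.0366% of cells, under the 0.5% of a working call, and an alternative removed the highest scores at 0.8% per 1000 cells.

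UMIs were summed over cells and divided by the library sum (CPM). Log2 ratios carry no pseudocount, and counts under 3 were set to 3. Intervals (95%) are exact: Poisson for levels, Clopper-Pearson for shares, and for ratios the binomial interval of one count given the sum of both. The ratio code was tested on simulated data. TMM factors came from edgeR 4.0.16. Gene structure came from GENCODE M21 on GRCm38, using the principal transcript, and 3' end sharing is of 31-base words in the last 500 bases. Every member could be named. Of other lists, the 2 highest and 2 lowest genes could be named. Members and lists were chosen with earlier results of these data known.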

Additional observations from a re-analysis of the deposited data

How the results depend on the processing

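No paired analysis was possible because each group held 1 library, whose number only names it. Over the summed, median and count results, 96 values were computed under alternatives, of which 69 moved by less than the counting interval or, for counts, by less than 1.5 times, 21 moved and 6 reversed. With TMM factors the log2 ratio was -0.58 for Son, 0.024 for all 33 genes, 0.083 for the head, 0.11 for the middle, 0.045 for the tail and -0.21 for the kinase module, with 1 gene lower past the fold. With totals without mitochondrial and ribosomal protein genes these were -0.60, 0.0072, 0.066, 0.092, 0.027, -0.22 and 1. Both scalings shift all ratios alike. In cells of 5000 to 10000 UMIs, a range chosen after seeing the data, Son was at -0.60, all 33 genes at -0.084, the tail at -0.091 and Med14 at -0.60. The median of all genes in that range was -0.16. Without Med12l and Med13l the sum of Mediator genes was at -0.042, and with Med27 to Med30 in the head the tail was at -0.23. At a mean of at least 50 CPM, 12 genes entered, with 1 lower and 0 higher past the fold. The median of all genes at that level was -0.11, and their share past the fold was not counted. The mean difference per cell, sonKD minus control, was -0.11 genes and -0.16 UMIs in the report. It was -0.22 genes and -0.27 UMIs when thinned to 4000 UMIs, and -0.062 UMIs at most 5% mitochondrial UMIs. Without thinning it reversed to 2.18 genes and 4.72 UMIs, with more UMIs per cell in sonKD. Of 264 values for single genes, 237 moved by less than the interval, 26 moved and 1 reversed. The reversed value was that of Med25, at 0.022 in cells of 5000 to 10000 UMIs. Smaller changes of sign were not counted as reversed. Med9, Med10, Med15, Med16 and Med29 went from below to above 0 with both scalings. Med8 and Med30 went below 0 in cells of 5000 to 10000 UMIs, and Med22 with the highest doublet scores removed. All 7 kinase module genes stayed below 0 under the alternatives tried for single genes, Cdk19 closest at -0.01. In the main setting 74.9% of all genes were below 0. The -0.01 of Cdk19 came with TMM factors, where the median of all genes was -0.03. Depth limits Med12l, Med16 and Med22 most, which have the fewest UMIs. With 1 library a group, no replicate could be left out.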

Other observations

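Cdk8 had 2744 UMIs in control droplets of 100 to 500 UMIs and 2588 in those of sonKD, against 72 and 45 for Cdk19, whose span is longer. In barcodes with over 10% mitochondrial UMIs, Cdk8 was also above cells, at a log2 ratio of 0.91 in control and 0.79 in sonKD. No 3' end sequence of Cdk8 occurs in another annotated gene, and where along the gene its reads lie was not tested.

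Neat1, a nuclear RNA, had 87.2 CPM in control against 224 in sonKD, a log2 ratio of 1.36, while Malat1, also nuclear, had a ratio of -0.27.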
